A study of Bos taurus with 6 samples.

Results

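The genes described here were read in wild-type bovine mammary epithelial cells and almost not at all after KLF6 was disrupted. They are the protein-coding rows of the deposited count table with at most 10 reads summed over the 3 knockout libraries and at least 100 reads summed over the 3 wild-type libraries. The thresholds themselves were met by 55 of the 11004 protein-coding rows with at least 100 wild-type reads (0.500%). Of these, 8 were set aside by name, FGFBP1, TMPRSS4, RAB15, SPTLC3, LYN, WNT3A, CLDN8 and THRSP, and 47 genes of the table's 28200 rows remained. FADS1, also set aside by name, did not meet the thresholds. The genes were thus chosen by the raw read sums of both genotypes, so their difference between genotypes is given as a description, without a test.

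The cells were primary mammary epithelial cells from Holstein cattle, obtained by enzyme digestion of breast tissue. The knockout cells carry a KLF6 gene disrupted with CRISPR/Cas9, and the wild-type cells do not. The labels give 3 libraries per genotype and do not say whether these came from separate cultures or edited clones, nor whether the knockout is 1 clone, so p-values reflect the variation among these 6 libraries alone, and that variation may be technical. Libraries held 17512892 to 18724879 reads. KLF6 RNA was at 217 to 230 CPM (counts per 1e+06 counts of the scaled library) in the knockout libraries against 496 to 558 CPM in wild type, so the transcript was lower but still read, although the labels call the knockout complete; counts per gene do not show the edited part. Over all genes, wild-type replicate 3 was the library least like its group: its chi-square per gene was 9.07 against replicate 1 and 9.22 against replicate 2, where a value of 1 is counting noise, and the other pairs of the same genotype lay at 2.27 to 2.96. Without it, the thresholds scaled to the libraries left gave 48 genes in place of 47.

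KLF6 is a zinc-finger transcription factor that binds GC-rich promoter elements. The mammary gland is lined by an inner luminal layer, which makes milk, and an outer basal layer, which contracts. Epithelial cells can also present antigen: class II molecules carry peptides to helper T cells, need the invariant chain CD74 during assembly, and are switched on by the coactivator CIITA. Many other genes below are best known from tissues outside the gland, among them transporters of kidney and intestine, receptors of neurons and the MAGE genes of germ cells. Each was assigned 1 role and 1 tissue of usual expression by hand from general knowledge after the list was seen. The largest role groups were antigen presentation and immune signalling with 8 genes, epithelial surface proteins with 7, and trafficking and signalling adaptors with 7. By tissue, 8 genes were assigned to epithelia, 6 to immune cells, 5 to the nervous system, 5 to many tissues, 4 to germ cells, 3 each to kidney and intestine, to liver, and to muscle and cartilage, and 2 to endothelium, while 8 had no assignment.

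Most of the 47 genes were rare transcripts in wild type as well. Their reads came to 5219, 5480 and 5323 in the wild-type libraries and to 49, 55 and 79 in the knockout libraries, and they made up 0.0298% of all wild-type reads. Among them, 10 had no read in any knockout library, 17 had 1 to 3 and 20 had 4 to 10. In wild type, 22 genes had under 200 reads, 17 had 200 to under 500 and 8 had 500 or more, with a median of 215. The mean wild-type level ran from 1.89 to 43.0 CPM with a median of 3.93 CPM, against 31.7 CPM over all protein-coding rows with at least 100 wild-type reads, and 1 gene lay above that value. Per kilobase of gene model, the median level was 1.66 CPM against 12.2 CPM. The gene models were of ordinary size, with a median of 2193 bases against 2543. A gene with few wild-type reads can meet the knockout limit through a smaller change, and the share of rows that are in the set dropped with depth: 3.25% of rows with 100 to under 200 wild-type reads, 1.25% at 200 to under 500, 0.414% at 500 to under 1000 and 0.0137% above that. The coefficient of variation among the wild-type libraries had a median of 11.3%, against 6.36% for all such rows. All 47 genes passed the filter on low counts, and all are in the authors' deposited table, where their log2 fold changes (knockout over wild type) run from -10.4 to -3.66. Over all 13390 genes tested with edgeR's quasi-likelihood test, 37.6% were called lower and 37.1% higher in knockout at an adjusted p under 0.05, 74.6% in all.

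**Figure D1:**
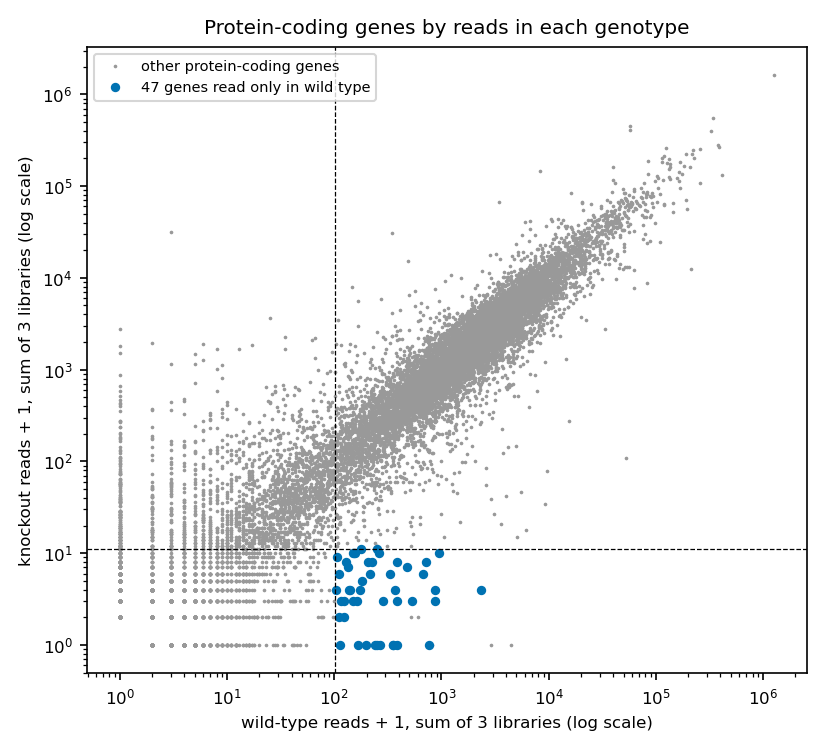
Each grey point is a protein-coding gene of the table, placed by its reads plus 1 summed over the 3 wild-type libraries (x axis, log scale) and over the 3 knockout libraries (y axis, log scale), and the 47 genes are in blue. Dashed lines mark the thresholds, and nearly all of the 47 lie at the low-read end of the wild-type axis.

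The opposite set was larger. With the same thresholds exchanged, 110 of the 10992 protein-coding rows with at least 100 knockout reads had at most 10 wild-type reads (1.00%). Of these, 32 had no wild-type read, the median was 200 knockout reads and the highest was 31601, held by the membrane metalloproteinase gene MMP14.

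Close to the thresholds the limit is arbitrary. Just inside the wild-type limit lay SCN10A with 103 reads, STX19 with 104 and TSPAN15 with 109. Just outside were PLA2G4E with 99, ADAM33 with 96 and MX2 with 88, each with at most 3 knockout reads. At the knockout limit, SYNE4 and ENSBTAG00000026836 had 10 reads and SPNS2 had 9, while ENSBTAG00000055295, FAM84A and VAMP5 had 11 and were left out despite 307, 252 and 249 wild-type reads. Ratios below are wild type over knockout, scaled for library size, with a 95% exact interval that covers counting error only. For genes at 0 in knockout, the ratio is a lower bound against 3 reads over the group. Coordinates are those of the count table, and no source used here gives its genome build.

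**Figure D2:**
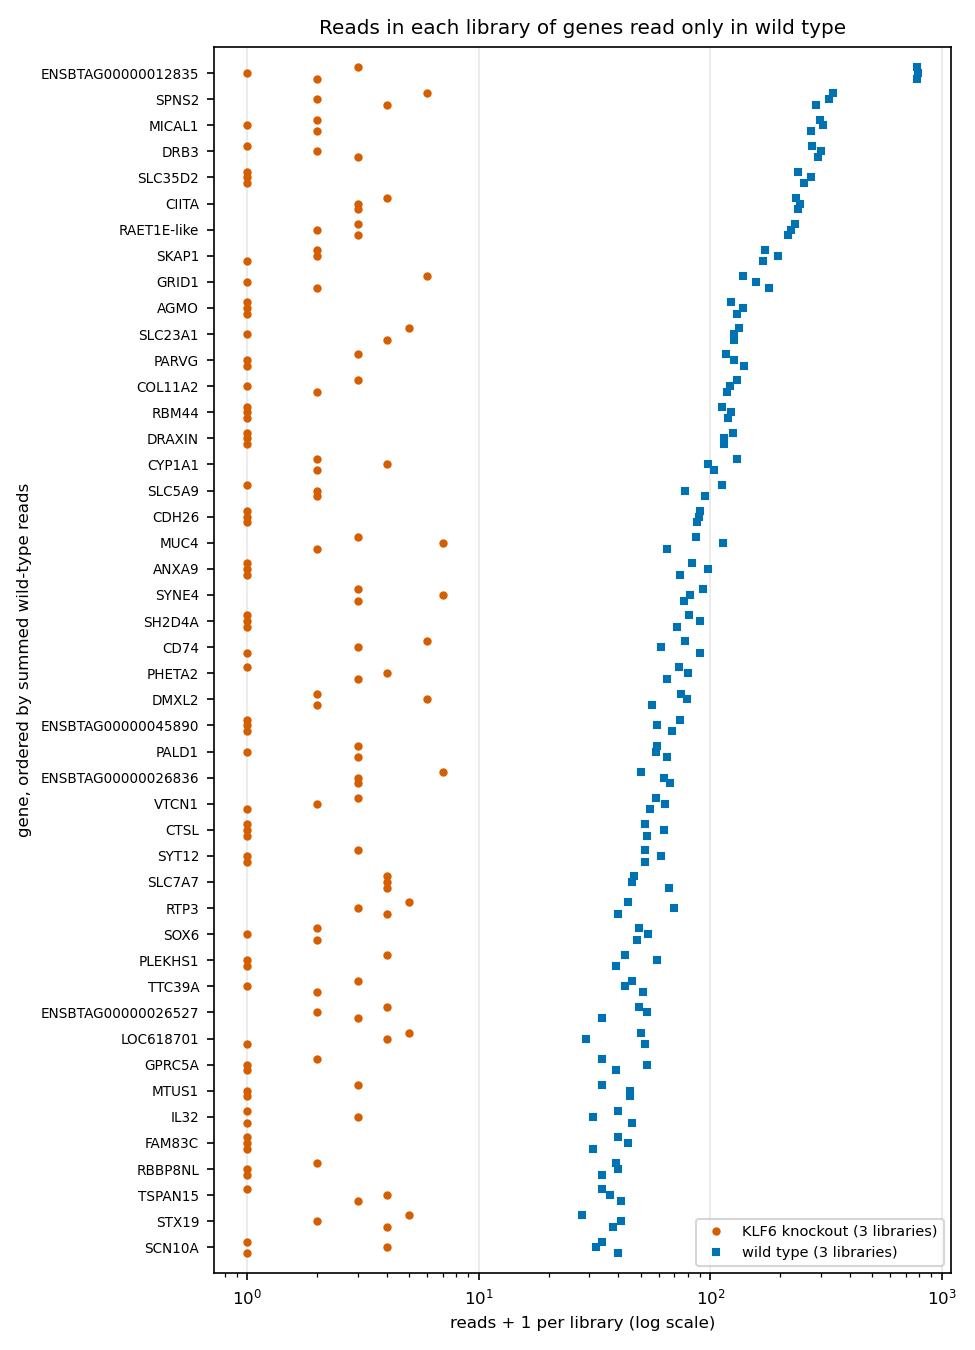
Reads plus 1 per library (x axis, log scale) for the genes reported by name (rows, ordered by wild-type reads), with knockout libraries as circles and wild-type libraries as squares. The genotypes do not overlap for any gene shown, which the choice of genes all but fixes, and the 3 wild-type squares of a gene lie close together.

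The 8 immune genes had a median of 457 wild-type reads, the highest median of the role groups. CIITA, the coactivator that switches on class II genes (chromosome 25, 9542154 to 9600304), had 237, 242 and 234 reads in wild type and 2, 2 and 3 in knockout, a ratio of 100.1 (48.3 to 250). DRB3, the beta chain of the class II DR molecule and the polymorphic one in cattle (ENSBTAG00000013919, chromosome 23, 25723715 to 25735337), had 291, 301 and 274 reads in wild type and 2, 1 and 0 in knockout, a ratio of 284 (96.8 to 1379). CD74, the invariant chain that escorts class II molecules, had 89, 60 and 77 reads against 0, 2 and 5. A coactivator, a class II chain and the class II chaperone were thus all close to unread in knockout, with DRB3 at 15.8 ± 0.768 CPM, CIITA at 13.0 ± 0.303 CPM and CD74 at 4.15 ± 0.905 CPM in wild type (SD, n = 3).

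In wild type, DRB3 had the most reads of the class II rows, followed by HLA-DMA with 360. BOLA-DRA, the alpha chain that pairs with the DR beta chain, had 17 wild-type reads and 1 knockout read, against 866 wild-type reads of DRB3, and BOLA-DQA1 had 26 and 0. HLA-DMA and BOLA-DMB, which load peptides onto class II molecules, passed the filter and both fell, by 1.25 ± 0.17 (SE; adjusted p = 2.88e-06) and by 1.65 ± 0.30 (adjusted p = 7.00e-05) on the log2 scale by edgeR. HLA-DOB, which restrains that loading, rose by 1.67 ± 0.53 (adjusted p = 0.00966) from 0.308 CPM. Class II genes are alike in sequence, and the authors' counting could split or merge their reads, so values for single class II genes are less certain. Of the 7 class I rows tested, 1 fell and 3 rose.

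Class II regulators and interferon-gamma pathway genes formed a list chosen after the 47 genes were known. In it, 8 of 16 genes tested fell and 3 rose, with a median log2 fold change of -0.21 against -0.01 over all genes tested. RFX5, which anchors CIITA at class II promoters, fell from 40.1 to 19.5 CPM (log2 -1.04 ± 0.08). The interferon signalling genes JAK1 (-0.96 ± 0.05) and IRF1 (-0.84 ± 0.15) fell as well. TAP1, which supplies peptides to class I molecules, rose by 0.63 ± 0.06, and the interferon-gamma receptor gene IFNGR1 rose by 0.56 ± 0.08.

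Because several of these genes are known from leukocytes, leukocyte markers were counted. The leukocyte list held 19 genes, of which 18 are in the file and 6 were tested; apart from CD74, CSF1R, AIF1 and LCP1 rose and the other two did not pass. Its summed level, CD74 included, was 406 to 418 CPM in knockout and 349 to 360 CPM in wild-type libraries. LCP1, which epithelial cells can also express, made up 388 CPM of that sum in knockout and 337 CPM in wild type. PTPRC, CD79B, LYZ, CD8A and MS4A1 had 0 reads in all 6 libraries. Other lineage markers had reads: CD68 had 175 in knockout and 224 in wild type, CD14 20 and 6, SPI1 9 and 14, ITGAM 6 and 0, CD3D 4 and 4, CD3E 3 and 2, CD4 2 and 2, and CD79A 0 and 1. The part of other cells in these genes' levels was not tested. In cultures read as a whole, fewer cells of a type and less RNA per cell cannot be told apart.

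RAET1E-like (ENSBTAG00000048114, chromosome 9, 87531057 to 87535158) is described in the file as a relative of the stress ligands that natural killer cells recognise through NKG2D. It had 216, 223 and 232 reads in wild type and 2, 1 and 2 in knockout, a ratio of 132 (56.3 to 408). Its tested relatives moved the opposite way: ENSBTAG00000038112, a UL16-binding protein 3-like gene, rose by 2.62 ± 0.18 (adjusted p = 2.52e-10), and ULBP13 rose by 2.15 ± 0.38 (adjusted p = 4.97e-05). These genes are also similar in sequence, so reads may have been assigned between them.

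SKAP1, an adaptor that links the T cell receptor to integrins, had 167, 195 and 172 wild-type reads and 0, 1 and 1 knockout reads. PARVG, the parvin of blood cells that joins integrins to actin, had 139, 125 and 116 against 0, 0 and 2. Both are known mainly from leukocytes, and both had more wild-type reads than CD74. Per kilobase of gene model, SKAP1 stood at 5.99 CPM and PARVG at 2.21 CPM in wild type, against 2.65 CPM for CD74. VTCN1 (also called B7-H4), a checkpoint ligand of epithelia, had 54, 63 and 57 reads against 0, 1 and 2. IL32, a cytokine gene (ENSBTAG00000050846), had 45, 30 and 39 against 0, 2 and 0. SKAP2, the broadly expressed relative of SKAP1, fell from 104 to 45.9 CPM (log2 -1.18 ± 0.05).

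Membrane transporters made up 5 of the genes. SPNS2, which exports sphingosine 1-phosphate from cells (chromosome 19, 24986777 to 25023355), had 284, 323 and 338 reads in wild type and 3, 1 and 5 in knockout, a ratio of 103 (54.1 to 226). SLC35D2, a Golgi transporter that brings nucleotide sugars to glycosyltransferases (chromosome 8, 83028782 to 83085624), had 254, 271 and 239 reads in wild type and none in knockout, at least 250-fold lower. SLC23A1, which takes up vitamin C in kidney and intestine, had 125, 125 and 132 reads against 3, 0 and 4. SLC35D2 was therefore among the genes with no knockout read, and SPNS2 was the second most read of the 47 at 17.3 ± 1.22 CPM. SLC5A9, a sodium-coupled sugar transporter, had 94, 77 and 111 reads against 1, 1 and 0. SLC7A7, the light chain of a cationic amino acid exchanger, had 65, 45 and 46 reads against 3 in each knockout library. SLC7A7 overlaps OXA1L on the opposite strand, a gene with 11697 wild-type and 7861 knockout reads, and since the strand setting of the counting is not given, reads of both cannot be told apart.

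Near relatives of these transporters were still read in knockout cells. SPNS1 and SPNS3 fell only by 0.19 ± 0.05 and 0.54 ± 0.13 on the log2 scale. SLC35D1, at 4.44 CPM in knockout against 4.46 CPM in wild type, did not pass the test (adjusted p = 0.966 by edgeR). Of 17 nucleotide sugar transporter genes tested, 10 rose and 3 fell, with a median of 0.36, and SLC35E4 (1.23 ± 0.14), SLC35A4 (1.14 ± 0.05) and SLC35B4 (0.89 ± 0.19) rose most. SLC23A2, the broadly expressed vitamin C transporter, rose by 1.30 ± 0.10 from 8.67 to 21.4 CPM, while SLC23A3 fell by 2.13 ± 0.52. Around SLC7A7, the similar light chain SLC7A6 rose by 1.57 ± 0.09 and SLC7A5 by 0.82 ± 0.07, and the shared heavy chain SLC3A2 fell by 0.16 ± 0.05. Genes of sphingosine 1-phosphate handling split 3 lower and 2 higher of 7 tested: the lyase SGPL1 fell by 0.74 ± 0.05 and the kinase SPHK1 rose by 0.47 ± 0.12.

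Enzymes made up 4 of the genes. AGMO, which cleaves the ether bond of alkylglycerols and needs tetrahydrobiopterin (chromosome 4, 23557610 to 23947179), had 129, 137 and 122 reads in wild type and none in knockout, at least 127-fold lower. CYP1A1, a cytochrome P450 induced through the aryl hydrocarbon receptor (chromosome 21, 33951654 to 33955241), had 103, 97 and 129 reads against 1, 3 and 1. CTSL, the lysosomal protease cathepsin L, had 52, 62 and 51 reads against none, at least 54.1-fold lower. Wild-type levels were 7.10 ± 0.374 CPM for AGMO, 6.02 ± 0.943 CPM for CYP1A1 and 3.01 ± 0.277 CPM for CTSL. PALD1, a phosphatase-domain protein known from vessels, had 64, 57 and 58 reads against 2, 0 and 2.

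The lists around these enzymes were small. In the ether lipid and tetrahydrobiopterin list, 6 of 15 genes tested fell (40.0%) and 5 rose (33.3%), with a median of -0.05. These shares were near the 37.6% and 37.1% over all genes tested. FAR1 (-0.95 ± 0.06), CEPT1 (-0.83 ± 0.08) and GNPAT (-0.81 ± 0.06), which build ether lipids, fell, while SELENOI, an ethanolamine phosphotransferase that also acts there, rose by 0.68 ± 0.11. GCH1, the first enzyme of tetrahydrobiopterin synthesis, rose by 0.71 ± 0.12. Of 5 tested genes of the aryl hydrocarbon receptor pathway, 4 fell: CYP1B1 (-3.30 ± 0.15), the receptor AHR (-1.72 ± 0.12), its partner ARNT (-0.95 ± 0.08) and NQO1 (-0.71 ± 0.13). TIPARP, another target of that receptor, did not pass, with 119 CPM in knockout cells against 115 CPM (adjusted p = 0.499 by edgeR). Among cathepsins 5 of 8 tested rose and 2 fell, with CTSC up by 3.13 ± 0.06, CTSH by 1.60 ± 0.05 and CTSB by 1.02 ± 0.04. CTSD, with 773 CPM in knockout cells against 801 CPM, did not pass, though it was called lower with library-size scaling. These enzyme lists other than ether lipids were chosen after the 47 genes were known.

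Epithelial surface, adhesion and secretion genes numbered 7, with 104 to 264 wild-type reads each. CDH26, a cadherin of epithelia (chromosome 13, 56552858 to 56590691), had 87, 88 and 89 reads in wild type and none in knockout, at least 86.5-fold lower. ANXA9, an annexin of epithelia (chromosome 3, 19777160 to 19786734), had 73, 97 and 82 reads against none, at least 82.6-fold lower. MUC4, a large membrane mucin, had 64, 112 and 86 reads against 1, 6 and 2. The wild-type libraries varied by 25.1% for MUC4 and by 2.10% for CDH26, the least of the 47. SYNE4, which ties the nucleus to microtubule motors, had 76, 81 and 92 reads against 2, 6 and 2. GPRC5A, a retinoic acid-induced receptor, had 38, 52 and 33 reads against 0, 0 and 1. TSPAN15, a tetraspanin that steers the protease ADAM10, had 40, 36 and 33 against 2, 3 and 0. STX19, a membrane fusion protein of epithelia, had 37, 40 and 27 against 3, 1 and 4.

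Other mucins were lower too. MUC20 fell by 4.92 ± 0.13, from 47.5 to 1.57 CPM, and MUC1 by 2.30 ± 0.12, from 18.4 to 3.73 CPM. Of 7 annexins tested besides ANXA9, 5 fell and 1 rose, and the abundant ANXA2 fell from 3462 to 1314 CPM. TSPAN1 fell by 4.96 ± 0.16, but over 12 tetraspanins tested 5 fell and 5 rose. SYNE2 (-1.41 ± 0.09) and SYNE3 (-0.97 ± 0.27) fell, whereas the GPRC5A relatives GPRC5B (0.65 ± 0.08) and GPRC5C (0.26 ± 0.05) rose.

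In the list of epithelial transcription factors and adhesion genes, 24 of 37 tested fell and 6 rose, with a median of -0.75. RAB25 (-3.21 ± 0.12), the splicing factor ESRP1 (-2.45 ± 0.05) and MAL2 (-2.40 ± 0.05) fell most. GRHL3 (1.32 ± 0.17) and LAD1 (0.53 ± 0.04) rose. Cells of both genotypes kept epithelial RNA: luminal markers summed to 3910 to 4059 CPM in knockout and 11158 to 12426 CPM in wild type, with 10 of 14 lower and 2 higher. Basal markers summed to 14804 to 15190 CPM and 15742 to 16376 CPM, with 7 of 13 lower and 6 higher. Fibroblast markers summed to 716 to 760 CPM and 3088 to 3253 CPM, with 5 of 9 lower and 2 higher. Most of these sums came from S100A4, which fell from 2011 to 462 CPM, and DCN, which fell from 1134 to 229 CPM. PDGFRA had 1194 wild-type reads against 415 after disruption, PDGFRB had 0 against 6, and COL1A2 had 0 against 278. SPNS2 and PALD1 are best known from endothelium. Endothelial markers summed to 53.2 to 56.1 CPM in knockout against 14.3 to 16.2 CPM in wild type, with 2 of 5 lower and 3 higher. In knockout, most of that sum came from PECAM1 (31.3 CPM, against 0.219 CPM in wild type) and ERG (21.3 CPM, against 9.97 CPM). VWF fell from 3.57 to 0.242 CPM and TEK from 0.951 to 0.187 CPM, and KDR and CLDN5 were at 0 in all libraries. These marker sums moved with genotype, and their part in the levels of the 47 genes was not tested.

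Genes best known from neurons numbered 5. GRID1, a delta-type glutamate receptor subunit (chromosome 28, 40404330 to 41087444), had 179, 157 and 137 reads in wild type and 1, 0 and 5 in knockout, a ratio of 77.5 (35.3 to 212). DRAXIN, a secreted repellent of growing axons (chromosome 16, 41962331 to 41990486), had 113, 113 and 124 reads against none, at least 115-fold lower. DMXL2, which helps acidify synaptic vesicles, had 55, 78 and 74 against 1, 5 and 1. The wild-type levels were 8.67 ± 1.33 CPM for GRID1 and 6.40 ± 0.361 CPM for DRAXIN, so both were above the median of the 47. SYT12, a synaptotagmin, had 51, 60 and 51 reads against 0, 0 and 2, and SCN10A, the sodium channel of pain neurons, had 39, 31 and 33 against 0, 3 and 0.

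Around them, neuronal genes did not move in 1 direction. Of 5 neuronal markers tested 4 rose and 1 fell, with summed levels of 628 to 652 CPM in knockout and 261 to 290 CPM in wild type. TUBB3 (517 and 215 CPM) and ENO2 (88.4 and 46.4 CPM), which are also read outside neurons, made up most of those sums, and 6 of the 18 listed markers had no read. Of 32 axon guidance genes tested, 14 fell and 10 rose. NRP1 fell by 4.14 ± 0.16, from 24.0 to 1.35 CPM, while its relative NRP2 rose by 7.25 ± 0.15, from 0.435 to 68.0 CPM. SEMA6D fell by 2.44 ± 0.22, and ROBO1 rose by 7.09 ± 0.22. Of 6 other synaptotagmins tested, 3 rose, among them SYT14 (5.25 ± 0.51) and SYT17 (4.90 ± 0.77), and 2 fell, and the sodium channels SCN1A (-1.02 ± 0.14) and SCN9A (-0.82 ± 0.14) fell.

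MICAL1, a flavoenzyme that oxidises actin filaments and takes them apart (chromosome 9, 40698480 to 40710698), led the cytoskeletal and matrix genes. It had 272, 305 and 298 reads in wild type and 1, 0 and 1 in knockout, a ratio of 430 (119 to 3557), at 16.0 ± 0.556 CPM in wild type. MICAL2, which does the same reaction, rose by 0.91 ± 0.06, from 44.6 to 84.0 CPM. COL11A2, a fibrillar collagen chain of cartilage (chromosome 23, 7350323 to 7378810), had 117, 120 and 130 reads against 1, 0 and 2. MTUS1, a microtubule-associated protein, had 44, 44 and 33 against 0, 0 and 2. MICAL1 was close to unread while its relatives were not, a contrast that the choice of genes partly fixes. Over 18 tested genes of MICAL proteins and semaphorin redox targets, 6 fell and 7 rose.

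The most read gene of all was ENSBTAG00000012835, which has no symbol and carries the MAGE family label in the file (unplaced contig, 113391 to 117065). Type I MAGE genes are known from germ cells and tumours and are silent in most adult tissues. It had 781, 784 and 783 reads in wild type and 1, 0 and 2 in knockout, a ratio of 769 (263 to 3734), at 43.0 ± 1.05 CPM. Per kilobase it stood at 44.5 CPM, the highest of the 47, and it alone held 14.7% of their wild-type reads. A pair of further MAGE rows lay 16.3 kb apart on another unplaced contig. ENSBTAG00000045890 (91098 to 107018) had 67, 58 and 73 reads against none, at least 64.9-fold lower. LOC618701 (ENSBTAG00000052186, 123365 to 141934) had 51, 28 and 49 against 0, 3 and 4.

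Most MAGE reads came from rows read in both genotypes, such as MAGED1 with 22307 knockout and 19105 wild-type reads, while some rows were read almost only in 1 genotype. The file labels 59 rows as MAGE, of which 15 had no read. Besides the 3 above, 19 were tested, and 13 of them rose while 3 fell. Of all MAGE rows, 9 had at least 20 knockout reads and at most 3 wild-type reads. ENSBTAG00000047709 had 436 knockout reads and ENSBTAG00000054034 143, and neither had a wild-type read. Of the broadly expressed MAGE genes, MAGED1 rose by 0.25 ± 0.06 and MAGEF1 fell by 0.73 ± 0.08. The MAGE rows resemble each other in sequence, so reads of single copies are uncertain. RBM44, another germ cell gene, which codes for an RNA-binding protein of intercellular bridges (chromosome 3, 117246496 to 117266624), had 118, 122 and 111 reads in wild type and none in knockout, at least 115-fold lower. Of the 18 germ cell markers listed, only TDRD9 passed the filter, and it rose from 8.82 to 283 CPM.

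SOX6, a transcription factor of cartilage, muscle and red cell precursors, had 47, 53 and 48 reads in wild type and 1, 0 and 1 in knockout, and of its 4 tested relatives 3 fell and 1 rose, SOX9, by 2.24 ± 0.33 from 0.440 CPM. Among trafficking and signalling genes, SH2D4A, an SH2-domain adaptor (chromosome 27, 38246299 to 38307830), had 71, 89 and 80 reads against none, at least 78.6-fold lower. FAM83C, of a family of scaffolds for casein kinase 1, had 30, 43 and 39 against none, at least 36.7-fold lower. Both thus belong to the 10 genes without a knockout read. RTP3, which helps taste receptors to the surface and is known from liver, had 39, 69 and 43 against 3, 2 and 4. PHETA2, an endosomal recycling adaptor, PLEKHS1, TTC39A and RBBP8NL had 110 to 215 wild-type reads and at most 5 knockout reads. A remaining pair, ENSBTAG00000026836 on chromosome 1 and ENSBTAG00000026527 on chromosome 20, has neither a symbol nor a description in the file, with 177 and 133 wild-type reads against 10 and 6.

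The 47 genes were scattered over the genome. Chromosome 3 held 5 and chromosome 13 held 4, and chromosomes 1, 5 and 28 held 3 each. No gene lay on chromosomes 2, 6, 11, 12, 14, 17, 24 or X. The unplaced contigs held 3 of the 16 rows there with at least 100 wild-type reads, all MAGE. Apart from the MAGE pair, no gene lay within 200 kb of another, and the next closest were PALD1 and TSPAN15 on chromosome 28, with 821 kb between them. CIITA, DRB3 and CD74 were on chromosomes 25, 23 and 7.

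**Figure D3:**
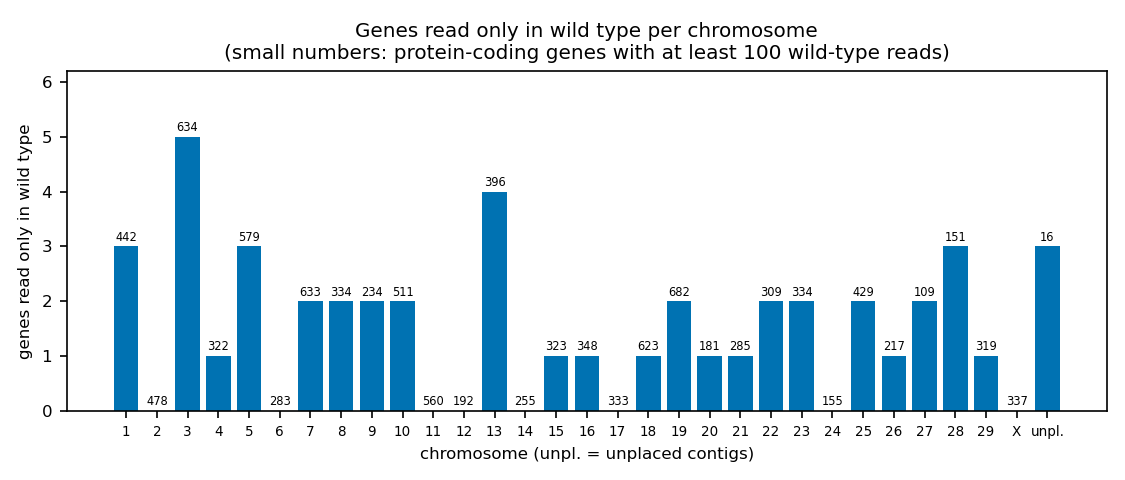
Bars give the number of the 47 genes on each chromosome (y axis), and the small numbers over the bars give the protein-coding rows there with at least 100 wild-type reads. Chromosome 3 has 5 genes among 634 such rows and the unplaced contigs have 3 among 16.

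Genes beside them were examined because their reads did not enter the choice. The nearest tested protein-coding gene on each side gave 88 neighbours. Of these, 42 fell (47.7%) and 25 rose (28.4%), with a median log2 fold change of -0.16, against 37.6% and 37.1% and -0.01 over all genes tested. Changes of at least 4-fold were found for 7 that fell and 3 that rose (11.4%, against 7.89% of all genes tested). With 2 neighbours on each side, 72 of 176 fell (40.9%) and 58 rose (33.0%), closer to the shares over all genes. Within 100 kb, 29 of 61 fell and 20 rose.

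Among neighbours, ENSBTAG00000051845 and MUC20 changed as much as some of the genes themselves but exceeded the limit of 10 knockout reads. ENSBTAG00000051845, an unnamed gene 17.8 kb from IL32 (chromosome 25, 2512968 to 2517563), had 2189, 2106 and 1909 reads in wild type and 8, 6 and 3 in knockout, and fell by 8.46 ± 0.15 (adjusted p = 1.26e-18). MUC20, 7.58 kb from MUC4, had 869, 940 and 786 reads against 29, 21 and 34, so 2 mucin genes side by side were both low in knockout. On the other side of MUC4, TNK2 rose by 0.31 ± 0.05. FBP2 beside CTSL (-2.87 ± 0.46), C29H11orf86 beside SYT12 (-2.44 ± 0.33), NODAL beside PALD1 (-2.28 ± 0.53) and TACR2 beside TSPAN15 (-1.86 ± 0.23) fell as well, followed by NSUN3 beside STX19 (-1.52 ± 0.14). At larger gaps, ALS2CL (-2.68 ± 0.09) fell at 112 kb from RTP3 and ISPD (-2.41 ± 0.42) at 554 kb from AGMO.

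Close neighbours in the opposite direction were also found. MAD2L2 lies 0.255 kb from DRAXIN and rose by 1.36 ± 0.09, from 13.9 to 35.7 CPM. EIF6, 1.48 kb from FAM83C, rose by 0.83 ± 0.05, and ZNF367, 5.39 kb from SLC35D2, rose by 1.14 ± 0.08. PDGFRL, 3.90 kb from MTUS1, rose by 2.25 ± 0.19. By contrast, SMPD2, 0.130 kb from MICAL1, fell by 1.25 ± 0.07, and MINDY1, 1.27 kb from ANXA9, fell by 1.49 ± 0.09. FAM217B beside CDH26 (1.48 ± 0.20), ADAMTS14 beside PALD1 (1.11 ± 0.07) and SNX11 beside SKAP1 (0.84 ± 0.10) rose. Farther off, TNFAIP8L3 (5.69 ± 0.33) rose at 410 kb from DMXL2, PPP1R14C (5.37 ± 0.40) at 135 kb from RAET1E-like, and ENSBTAG00000047380, described as a calcitonin-related gene, at 966 kb from SOX6 (1.93 ± 0.15). MMP14, noticed after its values were seen, lies 12.3 kb from SLC7A7 and had 10800, 10452 and 10349 reads in knockout and 1, 0 and 1 in wild type, so genes read in opposite genotypes stood near each other on chromosome 10.

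**Figure D4:**
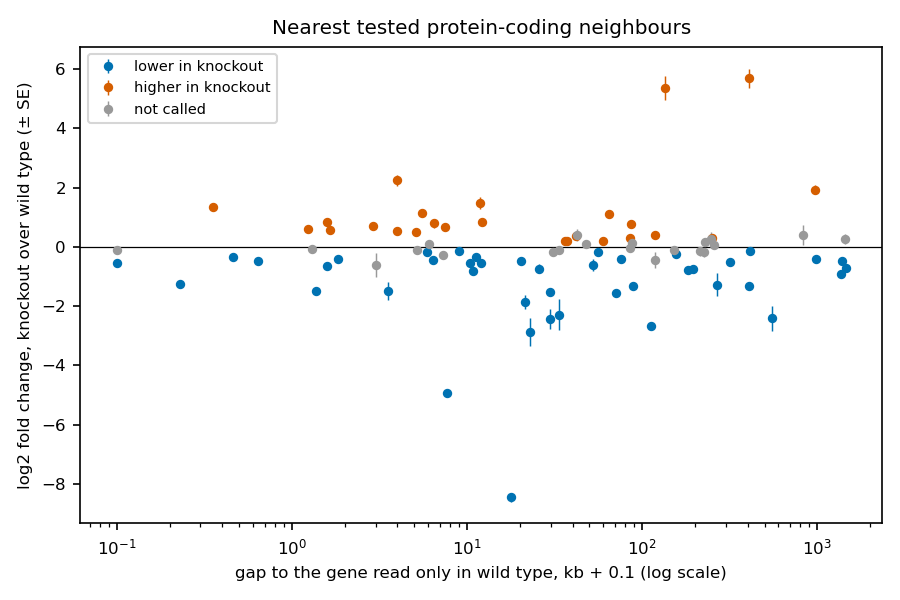
Each point is a tested neighbour, placed by its gap to one of the 47 genes in kb plus 0.1 (x axis, log scale) and by its log2 fold change between knockout and wild type (y axis, bars are SE), coloured by edgeR call. Points lie on both sides of 0 at every distance, and the lowest is ENSBTAG00000051845 at -8.46.

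Relatives were taken as protein-coding genes that share the stem of a symbol. Of 246 tested, 108 fell (43.9%) and 85 rose (34.6%), with a median of -0.11, against 37.6%, 37.1% and -0.01 over all genes tested. Without the broad stems FAM, RBM and TTC, a choice made after the data were seen, 41 of 78 fell and 26 rose, with a median of -0.28. Besides those already given, CDH23 (-3.76 ± 0.52), MTUS2 (-2.66 ± 0.62), FAM83E (-2.86 ± 0.15), SLC7A11 (-2.60 ± 0.51) and RBM47 (-4.01 ± 0.09) fell. SH2D3C (3.68 ± 0.62), TTC7B (5.55 ± 0.54), FAM20C (4.24 ± 0.13) and RBM38 (1.77 ± 0.16) rose.

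**Figure D5:**
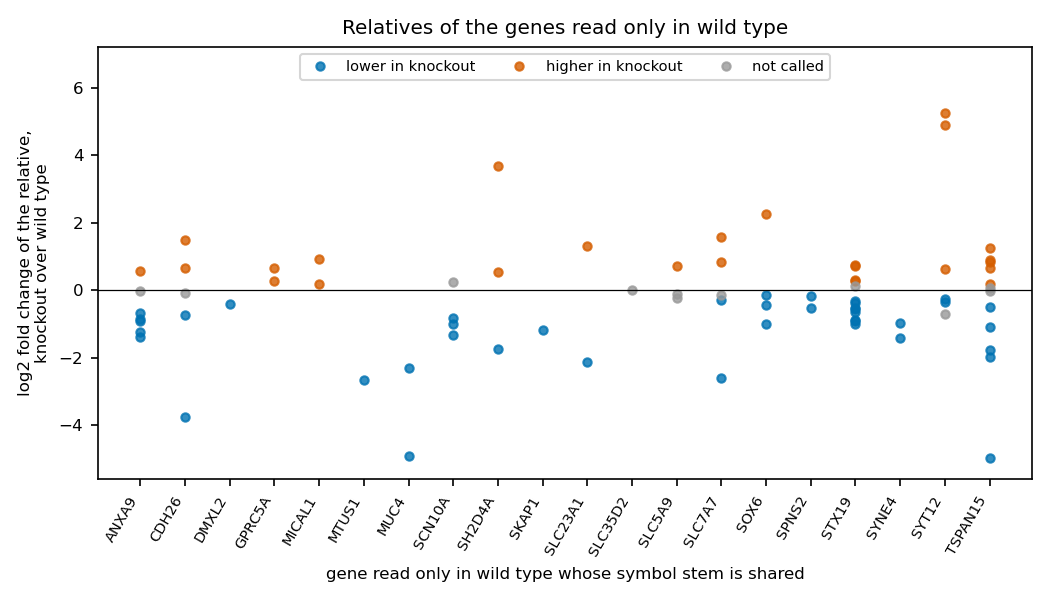
Each point is a tested relative of the gene named on the x axis, placed by its log2 fold change between knockout and wild type (y axis) and coloured by edgeR call, with the stems FAM, RBM and TTC left out. Both relatives of MUC4 lie below 0, at -4.92 and -2.30, and both relatives of GPRC5A lie above 0.

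Lists of innate sensors and of Kruppel-like factors were also counted. Of 19 Toll-like receptor and innate sensor genes tested, 12 fell and 5 rose, with a median of -0.44, and the RNA sensors DHX58 (-1.99 ± 0.11) and IFIH1 (-1.69 ± 0.14) were among those that fell, while TLR2 rose by 4.54 ± 0.73 from 0.0376 CPM. Of 18 Kruppel-like and Sp factors tested, 10 fell and 2 rose, with KLF9 (-2.51 ± 0.24), KLF2 (-1.31 ± 0.09) and KLF10 (-1.27 ± 0.06) lowest and KLF16 up by 1.07 ± 0.10.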

How the data were processed

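RNA of 3 KLF6 knockout and 3 wild-type libraries was compared. The authors deposited whole-number raw counts per gene, with symbols, coordinates in bases, biotypes and a family label. The authors' deposited table of their own comparison gives a log2 fold change and an adjusted p-value for each gene they called; its normalized sample signal columns were not used. The submitters' processing notes name HISAT2 2.0.5 and featureCounts 1.5.0-p3. Build, annotation and strand setting are not given in the sources read here, so reads of overlapping genes may be mixed.

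The counts were fitted with edgeR 4.0.16 (R 4.3.3): TMM scaling, filterByExpr (minimum count 10, minimum total 15), the robust quasi-likelihood test and Benjamini-Hochberg adjustment over all 13390 genes at 0.05. CPM are reads per 1e+06 of the library after TMM scaling, given as mean ± SD. The SE was taken from the F statistic as the size of the log2 change divided by the root of F. Every adjusted p in the text is from this edgeR fit. The fit was checked on simulated data. The genes and lists were chosen with earlier results of these data known. Named were the 15 of the 47 genes most read in wild type, the 10 without knockout reads, those within 200 kb of another or next to a threshold, the neighbours and relatives with the largest changes and up to 3 genes per direction of each list. Other named genes were chosen after their values were seen. Intervals and floors (3 counts over a group, 95% exact intervals) cover counting error only. Some items that the naming rule chose are not reported here. Replicate numbers are not said to pair the libraries.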

Additional observations from a re-analysis of the deposited data

How the results depend on the processing

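The number of genes moved with the thresholds: 27 with at most 3 knockout reads, 78 with at most 20, 86 with at least 50 wild-type reads and 25 with at least 200. It was 46 on TMM-scaled counts and 45 to 48 without 1 library. Taking 2 neighbours per side gave 72 lower and 58 higher of 176, shares of 40.9% and 33.0% in place of 47.7% and 28.4%, so the excess of lower neighbours was smaller. Leaving out the stems FAM, RBM and TTC gave 41 lower and 26 higher of 78 relatives. The shares were 52.6% and 33.3% in place of 43.9% and 34.6%, so the lower share was larger. Over the other scalings, filters and tests and with 1 library left out, neighbours ranged from 38 to 44 lower and 23 to 26 higher, and relatives from 98 to 116 lower and 81 to 92 higher. Over all genes, DESeq2 called 4625 lower and 4824 higher and library-size scaling 5354 and 4622. Same-numbered libraries deviated together by correlations of -0.04, 0.07 and -0.02, so the numbers were not taken as pairs; with a replicate block, 4956 genes were lower and 4938 higher, with 41 and 25 neighbours and 105 and 86 relatives. Among named genes, 2 that did not pass changed sign, and the cause was not tested: TIPARP was at -0.012 with library-size scaling, and SLC35D1 at 0.0050 with DESeq2 size factors, 0.0062 with DESeq2 and from -0.178 to 0.152 without 1 library, above 0 without knockout replicate 3 or wild-type replicate 2. Promoter features were not run, as no promoter sequences were used here. Depth limits the genes near 100 wild-type reads most.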

Other observations

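Rows of other biotypes also met the thresholds, 9 in number. The long noncoding RNA ENSBTAG00000053603 on chromosome 29 (49550909 to 49553252) had 105, 140 and 161 reads in wild type and 1, 1 and 2 in knockout. An extra locus of the file without a gene identifier, which starts at 49562376 on the same chromosome, had 79, 50 and 89 against 1, 1 and 6. ENSBTAG00000050877, a long noncoding RNA on chromosome 13 (56543258 to 56546979) next to CDH26, had 40, 35 and 25 against 0, 0 and 1, and a SOWAHA pseudogene had 31, 47 and 30 against 5, 1 and 4. Another extra locus, on an unplaced contig (7390 to 38288), met the thresholds through 1 library, with 0, 2493 and 2 reads in wild type.

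Whole chromosomes differed in their median log2 fold change over all genes tested. The lowest were -0.82 on chromosome 14, which holds none of the 47 genes among 255 rows with at least 100 wild-type reads, and -0.57 on chromosome 28, which holds 3 among 151. The highest were 0.48 on chromosome 20 and 0.45 on chromosome 26, with 1 gene each, leaving aside 0.68 on the unplaced contigs, which hold 3 among 16.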
